A study of Mus musculus with 18 samples.

Results

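The genes described here encode the constitutive proteasome, its regulators and its assembly chaperones in mouse. They were chosen by name, as every gene in the deposited gene table whose symbol begins with Psma, Psmb, Psmc, Psmd, Psme, Psmf or Psmg followed by a number, without the immunoproteasome genes Psmb8, Psmb9 and Psmb10. This rule found 45 of 18397 genes, and 43 of the 45 passed the filter on low counts. RNA was sequenced from 18 libraries in 6 groups of 3, all labelled RAW264.7, which is the name of a macrophage line of Abelson virus-transformed mouse cells. The groups were cells of a stiff matrix with a condition labelled TW (Stiff-TW), with an addition labelled mito (Stiff+mito) or with neither (Stiff), and the matching cells of a soft matrix (Soft-TW, Soft+mito and Soft). What mito and TW stand for and how stiff the matrices were is not in the labels, which name no genetic change and do not say whether the libraries of a group came from separate cultures. Adjusted p-values therefore measure only how far these libraries differ, and that spread may be technical.

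The libraries went against their label in Csf1r, Adgre1 and Ptprc, genes that define a macrophage. Csf1r, the receptor for a macrophage growth factor, lay between 0.03 and 1.1 TPM (a transcript abundance corrected for gene length and depth), and Adgre1, the F4/80 antigen, between 0 and 0.14 TPM. Ptprc, the leukocyte antigen CD45, lay between 0 and 0.27 TPM. Other macrophage markers were present, with Cd14 between 20.05 and 34.25 TPM and Lyz2 between 5.07 and 30.84 TPM. Krt8, a keratin of simple epithelia, lay between 431 and 730 TPM, and Vim, an intermediate filament of mesenchymal cells, between 1413 and 4229 TPM. The epithelial markers Epcam and Cdh1 reached no more than 0.1 and 0.34 TPM. The values below are therefore given for the libraries labelled RAW264.7, without a cell type. The total of estimated counts ran from 16054637 to 16887244 per library.

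The 26S proteasome degrades proteins that carry ubiquitin chains. Its 20S core is a barrel of alpha rings, which gate the entrance, around beta rings, which hold the proteolytic sites. The 19S cap has a base, with a ring of ATPases that unfold the substrate, and a lid, whose Psmd14 removes the ubiquitin chain. Other caps, encoded by Psme1 to Psme4, can open the core in place of the 19S cap, and dedicated chaperones put the rings together. Subunits of the complex are commonly transcribed together, with Nfe2l1 (also called Nrf1) as a known activator when proteasome activity is short.

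Core subunits were the most abundant members. On the TPM scale, averaged over the 18 libraries, Psmb3, a beta subunit without proteolytic activity, led with 579 TPM, followed by the alpha subunit Psma7 with 550.4 TPM and the beta subunit Psmb4 with 466 TPM. The 7 tested alpha subunits spanned 229.7 TPM (Psma1) to 550.4 TPM, so that subunits present once per ring differed in their mRNA level. Among the proteolytic subunits, Psmb5 (chymotrypsin-like) had 313 TPM, Psmb7 (trypsin-like) 248 TPM and Psmb6 (caspase-like) 199 TPM. The 6 ATPases lay between 154 TPM for Psmc4 and 297 TPM for Psmc6, and the 8 lid subunits between 127 TPM for Psmd13 and 272 TPM for Psmd8.

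Assembly chaperones and the inhibitor were lower. Psmd9, a chaperone of the ATPase ring, had 15.8 TPM, the lowest of the tested members, and Psmf1, the PI31 protein that inhibits the isolated core, had 24.0 TPM. Psme2 and Psme1, the paired subunits of the PA28 cap, had 232 and 155 TPM. Psme3, the nuclear PA28 gamma, had 108 TPM and Psme4, the PA200 cap, had 63.5 TPM. The remaining genes, Psma8, an alpha subunit of the testis, and Psmb11, the beta subunit of the thymic cortex, were listed at no more than 0.21 TPM and 0.05 TPM in any library and could not be tested. The estimated counts of Psme2 were not whole numbers in 100% of libraries, and a near-identical copy, Psme2b, stands in the same table, so the split of reads between the copies leaves its value uncertain.

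**Figure D1:**
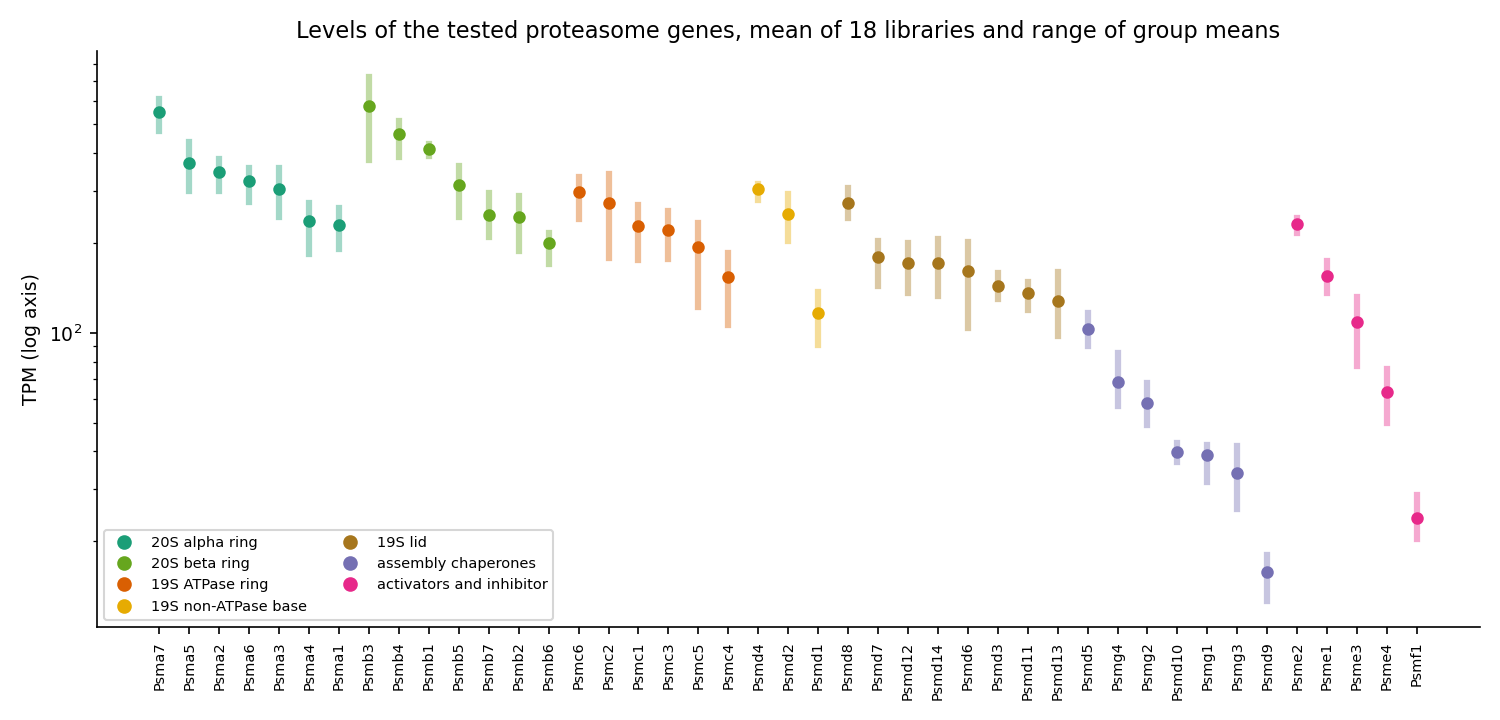
Level of each of the 43 tested proteasome genes in TPM on a log axis, ordered by role and then by level. Points are means of 18 libraries and bars span the lowest to the highest of the 6 group means. The core subunits Psmb3 and Psma7 stand highest and the chaperone Psmd9 lowest.

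Summed over the 45 genes, the level was lowest in the Stiff-TW libraries. It came to 7582 ± 23.6 TPM in Stiff-TW, 8817 ± 45.7 TPM in Stiff+mito and 9502 ± 51.8 TPM in Stiff (SD, n = 3 each). On the soft matrix it came to 8699 ± 51.9 TPM in Soft-TW, 10287 ± 41.2 TPM in Soft+mito and 10067 ± 29.6 TPM in Soft. No range of the 3 libraries of a group overlapped that of another group of the same matrix. The summed level of the 6 ATPases of the 19S base was 999 ± 21.7 TPM in Stiff-TW against 1522 ± 17.1 TPM in Stiff. That of the 8 alpha subunit genes was 1971 ± 11.3 TPM in Stiff-TW against 2386 ± 20.6 TPM in Stiff. In bulk RNA, fewer cells that express a gene and less RNA per cell cannot be told apart.

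**Figure D2:**
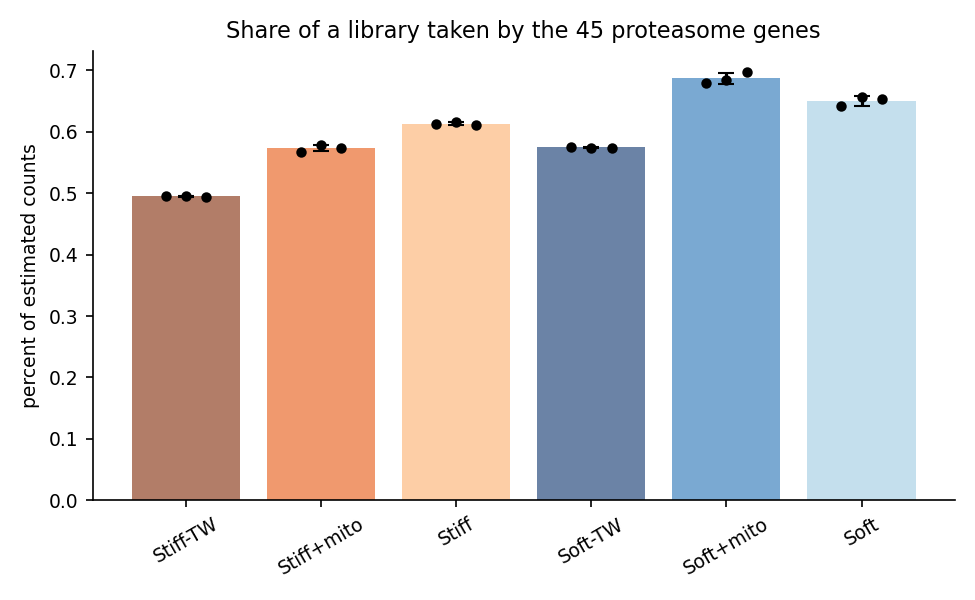
Share of all estimated counts of a library that fell on the 45 proteasome genes, in percent. Bars are group means with the SD (n = 3) and points are libraries. The Stiff-TW libraries lie lowest, near 0.495%, and the Soft+mito libraries highest, from 0.679% to 0.697%.

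On the stiff matrix, most of the complex was lower under TW. The test was edgeR's two-sided quasi-likelihood F-test on the estimated counts, adjusted by Benjamini-Hochberg across 12245 genes, with a call at an adjusted p under 0.05. In Stiff-TW against Stiff, 35 of the 43 tested members fell and 5 rose, 93.0% in all, where 69.6% of all genes tested were called, 35.5% higher and 34.1% lower. The median log2 fold change was -0.26 for the members and 0.01 for all genes.

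In the ATPase ring 6 of 6 members fell, with a median of -0.49. Psmc2 (chromosome 5, 21785275 to 21803787, GRCm38.p6) had 139, 131 and 137 CPM in the Stiff-TW libraries against 242, 249.9 and 253 CPM in the Stiff libraries, where CPM is a library's count over its total, scaled by edgeR's TMM factors. These libraries did not overlap, and the log2 fold change was -0.87 ± 0.03 (SE, adjusted p = 7.08e-39). Psmc5 had 77.6, 77.6 and 79.8 CPM in Stiff-TW against 137, 133 and 138 CPM in Stiff, a log2 fold change of -0.80 ± 0.03. Psmc4 had 82.3, 75.2 and 81.3 CPM in Stiff-TW against 117, 122 and 124 CPM in Stiff, a log2 fold change of -0.60 ± 0.04. The other ATPases, Psmc1, Psmc3 and Psmc6, changed by -0.37, -0.35 and -0.38 on the same scale, so the fall was uneven around the ring.

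Other large falls were spread over the lid, the core and the caps. Psme3 had 123, 126 and 117 CPM in Stiff-TW against 198, 199.7 and 202 CPM in Stiff (log2 fold change -0.71 ± 0.03, adjusted p = 1.69e-44). Psmd14, the lid deubiquitinase, had 108, 112 and 107 CPM in Stiff-TW against 159, 165 and 163 CPM in Stiff (-0.58 ± 0.03). Psmd6, a structural lid subunit, had 69.1, 72.1 and 72.0 CPM in Stiff-TW against 109, 108 and 108 CPM in Stiff (-0.61 ± 0.03). In each of the 3 genes every Stiff-TW library lay below every Stiff library. Psmb3 had 106, 106 and 107 CPM in Stiff-TW against 159.7, 158 and 160.3 CPM in Stiff, a log2 fold change of -0.58 ± 0.03, the largest fall in the beta ring.

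The proteolytic subunits fell less than Psmb3. Psmb5 had 93.9, 87.0 and 91.8 CPM in Stiff-TW against 113, 114 and 118 CPM in Stiff (-0.34 ± 0.03, adjusted p = 5.16e-16). Psmb6 changed by -0.25 ± 0.04 (adjusted p = 1.18e-08). Psmb7 changed by -0.08 ± 0.04 (adjusted p = 0.0449). The Psmb7 call was lost with DESeq2 (adjusted p = 0.087) and without Stiff replicate 1 (0.104), Stiff replicate 3 (0.0826), Stiff-TW replicate 2 (0.0545) or Stiff-TW replicate 3 (0.163). Among the chaperones of core assembly, Psmg3 had 9.27, 9.03 and 9.67 CPM in Stiff-TW against 13.2, 14.2 and 14.6 CPM in Stiff (-0.59 ± 0.09), while Psmg1 and Psmg2 changed by -0.32 and -0.39. Psmg4 did not pass (0.02, 95% interval -0.18 to 0.21, adjusted p = 0.872), and on the TPM scale it was lower (-0.18, adjusted p = 0.0415). Of the base chaperones, Psmd9 changed by -0.40 ± 0.07 (adjusted p = 1.28e-07) and Psmd5 did not pass (-0.05, adjusted p = 0.212), though it was called lower with library totals (adjusted p = 0.0102) and on the TPM scale (0.00993). Psme4 and Psmf1 changed by -0.29 and -0.20.

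Of the 43 tested members, 5 rose in Stiff-TW. Psmd10, the base chaperone known as gankyrin, had 32.1, 33.1 and 31.5 CPM in Stiff-TW against 25.7, 28.1 and 26.5 CPM in Stiff (0.27 ± 0.06, adjusted p = 2.6e-05). Psmd8, a lid subunit, had 221, 227 and 218 CPM in Stiff-TW against 193, 189 and 190.2 CPM in Stiff (0.22 ± 0.03). Psmb1, a beta subunit without proteolytic activity, had 199, 203 and 217 CPM in Stiff-TW against 179, 181 and 176 CPM in Stiff (0.21 ± 0.03). The Stiff-TW libraries lay above the Stiff libraries in each of these. Psme1 had 79.6, 75.7 and 75.5 CPM in Stiff-TW against 63.9, 66.6 and 68.4 CPM in Stiff (0.21 ± 0.04). The rise of its partner Psme2 was smaller (0.10 ± 0.04, adjusted p = 0.0132), and its call was lost without Stiff-TW replicate 2 (0.109), with library totals (0.221), with DESeq2 (0.0937) and on the TPM scale (0.998).

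On the soft matrix most of the complex was lower under TW as well. In Soft-TW against Soft, 29 members fell and 3 rose, 74.4% of the tested members, against 56.9% of all genes tested, 28.9% higher and 28% lower. With library totals in place of TMM, 38.6% of the calls over all genes were higher, against 50.8% with TMM, and on the TPM scale 28.8%. The median was -0.12 for the members and -0.00373 for all genes. The ATPase ring again fell in 6 of 6 members, with a median of -0.30. Psmc5 had 98.8, 103 and 104 CPM in Soft-TW against 134, 139 and 134 CPM in Soft (-0.41 ± 0.03, adjusted p = 1.74e-22). Psmc2 had 177, 168 and 165 CPM in Soft-TW against 212, 218 and 218 CPM in Soft (-0.35 ± 0.03), and neither gene overlapped between the groups. Psmc4, Psmc3, Psmd6 and Psme3 changed by -0.33, -0.28, -0.28 and -0.26. Psmd8 (0.23 ± 0.03), Psmb1 (0.16 ± 0.03) and Psme1 (0.12 ± 0.04) were the 3 that rose. The Psme1 call was lost with library totals (adjusted p = 0.132), with DESeq2 (0.052) and on the TPM scale (0.57), and that of Psmb1 on the TPM scale (0.0834). Without Soft-TW replicate 3 the number that rose was 5.

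The remaining members in Soft-TW followed their roles only in part. Psmb5 changed by -0.19, Psmd14 by -0.25, Psme4 by -0.20, Psmf1 by -0.18 and Psmg2 by -0.18 on the log2 scale. Psmb7 changed by -0.09 ± 0.03 and Psmd5 by -0.09 ± 0.03 (adjusted p = 0.0134 and 0.0179). The Psmb7 call was lost without Soft replicate 2 (0.0655), Soft replicate 3 (0.092) or Soft-TW replicate 1 (0.0613). The Psmd5 call was lost with the length correction (0.0689) and without Soft replicate 1 (0.0676), Soft replicate 2 (0.0526) or Soft-TW replicate 3 (0.313), and the Psmg2 call without Soft replicate 3 (0.0641). Psmb6 (-0.02), Psme2 (0.03), Psmg1 (-0.10), Psmg3 (-0.12), Psmg4 (0.15), Psmd9 (-0.09) and Psmd10 (0.10) did not pass, and Psmd10 passed without Soft replicate 3 (0.0355). On the TPM scale Psmb6 (adjusted p = 0.0163), Psmg1 (0.00729), Psmg3 (0.00198) and Psmd9 (0.0183) were called lower, Psmd9 also with library totals (0.0468). On the TPM scale Psme2 was lower in Soft-TW (-0.069, adjusted p = 0.0333). Of the members called on both matrices, 28 fell on both, 3 rose on both and 0 changed in opposite directions. Over all genes tested, 2719 fell on both, 2901 rose on both, and 135 and 167 changed in opposite directions, so most genes called on both matrices also shared their direction. The 2 comparisons share no libraries.

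The change under TW was lower on the stiff matrix for 24 of the 43 members. This was tested as an interaction, the change under TW on the stiff matrix over that on the soft matrix. A total of 24 members had a lower and 0 a higher interaction (55.8%), where 36.1% of all genes tested were called, 16.4% higher and 19.7% lower. On the TPM scale 62.1% of the calls over all genes were higher, against 45.3%. With 0 called higher in edgeR, DESeq2 also called 0 higher, and the length-corrected fit and limma on TPM called 1 each. Psmc2 had an interaction of -0.53 ± 0.04 on the log2 scale (adjusted p = 6.78e-18), Psmg3 of -0.47 ± 0.13, Psme3 of -0.45 ± 0.04 and Psmb3 of -0.44 ± 0.04. Psmd14 had -0.33 ± 0.04, Psmb6 -0.23 ± 0.05 and Psmb5 -0.15 ± 0.05. For Psmb7 the interaction was 0.02 (95% interval -0.08 to 0.11), so a difference in its change between the matrices was not shown. Psmd9 (-0.31), Psmg2 (-0.21), Psme4 (-0.09), Psmc5 (-0.38) and Psmd6 (-0.33) passed. Psmd5 (0.04), Psmd10 (0.17), Psmg1 (-0.22), Psmg4 (-0.13), Psme1 (0.09), Psme2 (0.07) and Psmf1 (-0.02) did not pass. The Psmg2 call was lost with DESeq2 (0.142) and without Soft replicate 1 (0.163), Soft-TW replicate 1 (0.0592), Soft-TW replicate 2 (0.0565), Soft-TW replicate 3 (0.0671), Stiff replicate 1 (0.0548), Stiff replicate 2 (0.0578), Stiff-TW replicate 1 (0.0653), Stiff-TW replicate 2 (0.0633) or Stiff-TW replicate 3 (0.0767). The Psme4 call was lost with DESeq2 (0.0699), on the TPM scale (0.844) and without Soft replicate 3 (0.0657), Soft-TW replicate 2 (0.178), Stiff replicate 1 (0.0509), Stiff-TW replicate 1 (0.0852) or Stiff-TW replicate 3 (0.112). The Psmd9 call was lost on the TPM scale (0.0633) and without Stiff-TW replicate 3 (0.071), and the Psmb5 call without Stiff-TW replicate 2 (0.0787). Without the filter on low counts the calls of Psmg2 (0.0686) and Psme4 (0.0606) were lost too, and that of Psmg2 also with the length correction (0.0803). Psmg1 passed without Stiff replicate 1 (0.0482), and Psmd10 passed with the length correction (0.20, adjusted p = 0.043).

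Marker sums of other cell types were as follows under TW. The summed level of 7 epithelial markers, most of it keratins, ran from 671 to 682 TPM in Stiff-TW against 696 to 714 TPM in Stiff, and from 764 to 783 TPM in Soft-TW against 999 to 1028 TPM in Soft. Of the 2 epithelial markers that could be tested, 0 were called in Stiff-TW and 2 fell in Soft-TW. The summed level of 8 fibroblast markers, most of it Vim, ran from 4357 to 4392 TPM in Stiff-TW against 1516 to 1549 TPM in Stiff, and from 3052 to 3128 TPM in Soft-TW against 2214 to 2290.3 TPM in Soft. The summed level of 13 macrophage markers ran from 56.3 to 58.4 TPM in Stiff-TW against 33.3 to 38.1 TPM in Stiff, and from 84.3 to 86.5 TPM in Soft-TW against 41.0 to 42.5 TPM in Soft. Of the 7 fibroblast markers tested, 5 rose and 2 fell in Stiff-TW and 4 rose and 0 fell in Soft-TW, and of the 7 macrophage markers tested 6 rose and 0 fell in each. None of the markers was at 0 in every library. Their part in the changes of the proteasome genes was not tested.

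**Figure D3:**
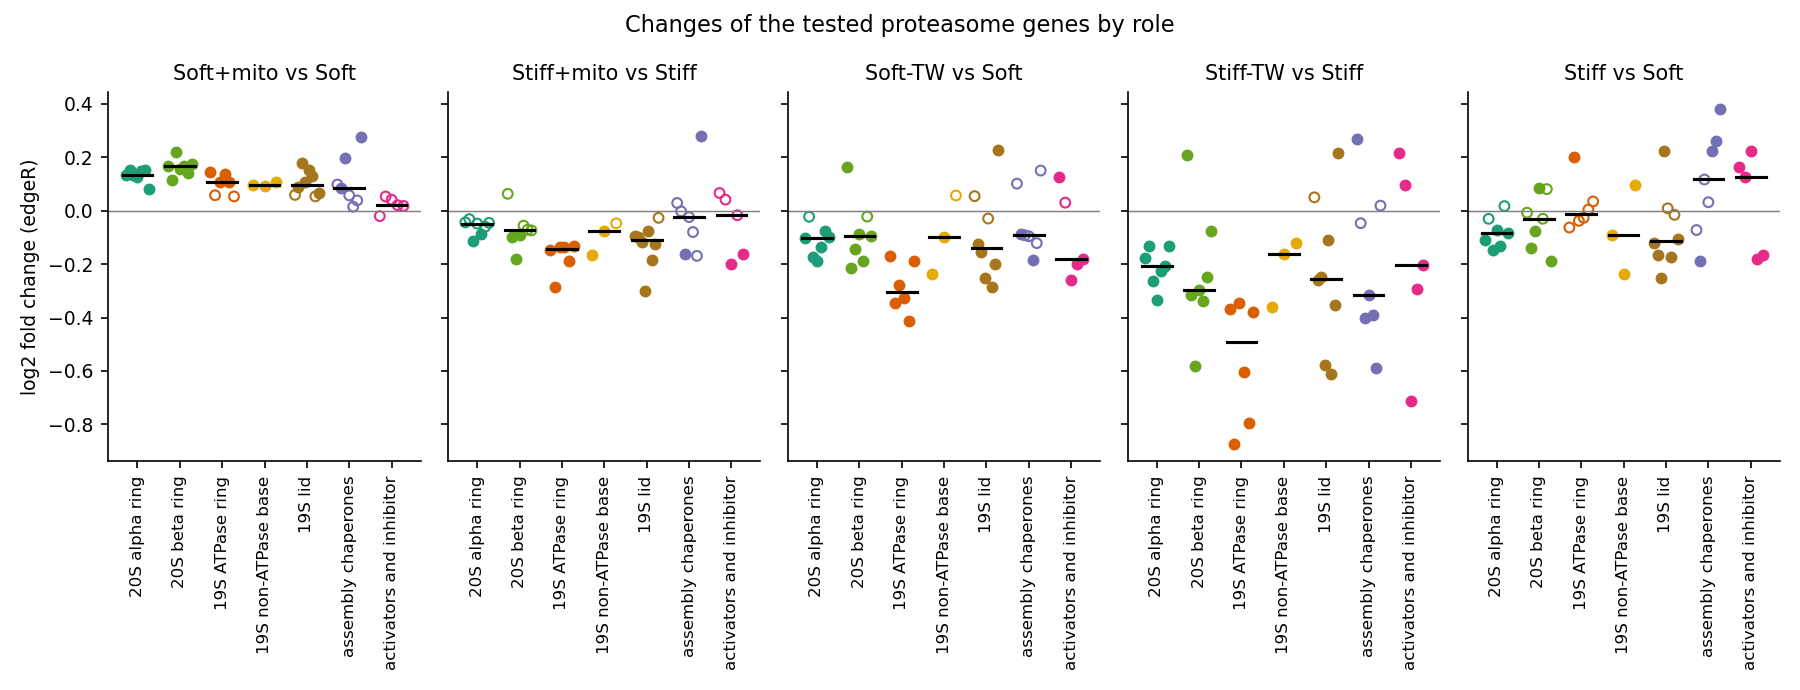
Log2 fold change of each tested proteasome gene by role in 5 comparisons. Filled points passed an adjusted p under 0.05, open points did not, and black lines are medians. The ATPase ring lies lowest in Stiff-TW against Stiff, with a median of -0.49.

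Under mito most called members were lower on the stiff matrix. In Stiff+mito against Stiff, 23 members fell and 1 rose, 55.8% of the tested members, against 33.5% of all genes tested, 15.6% higher and 17.8% lower. The median was -0.09 for the members and 0.00 for all genes. The ATPase ring fell in 6 of 6 members (median -0.14) and the lid in 7 of 8 (median -0.11), while 2 of 7 alpha and 3 of 7 beta subunits fell. The fall was thus more frequent in the 19S cap than in the core in this fit, as a count without a test of that difference. The core subunits Psmb5 and Psmb7 were called lower only with the length correction and on the TPM scale. The summed level of the alpha subunit genes was 2255 ± 23.5 TPM in Stiff+mito against 2386 ± 20.6 TPM in Stiff (SD, n = 3 each). That of the beta subunit genes was 2361 ± 8.66 against 2550 ± 34.6 TPM, and that of the ATPases 1337.5 ± 24.1 against 1522 ± 17.1 TPM.

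The 2 largest falls in Stiff+mito were in the 19S cap. Psmd14 had 132, 129.6 and 134 CPM in Stiff+mito against 159, 165 and 163 CPM in Stiff (-0.30 ± 0.03, adjusted p = 1.69e-15). Psmc2 had 194, 214 and 205 CPM in Stiff+mito against 242, 249.9 and 253 CPM in Stiff (-0.28 ± 0.03, adjusted p = 1.23e-13). Neither gene overlapped between the groups. Psme3, Psmc5, Psmd6 and Psmb3 changed by -0.20, -0.19, -0.19 and -0.18, and Psmf1 by -0.16. Psmb5 (-0.06), Psmb6 (-0.07), Psmb7 (-0.07), Psme1 (0.07), Psme2 (0.04), Psme4 (-0.02), Psmg1 (-0.02), Psmg2 (-0.08), Psmg3 (-0.17), Psmd5 (-0.00213) and Psmd10 (0.03) did not pass. Psmd9 passed at -0.16 ± 0.06 (adjusted p = 0.043) and its call was lost with DESeq2 (0.164) and without Stiff replicate 2 (0.0537), Stiff replicate 3 (0.294), Stiff+mito replicate 1 (0.0842), Stiff+mito replicate 2 (0.0957) or Stiff+mito replicate 3 (0.0837). Psmb6 passed without Stiff replicate 3 (0.0386) or Stiff+mito replicate 1 (0.0431), and Psmb5 and Psmb7 passed with the length correction (adjusted p = 0.0312 and 0.0276) and on the TPM scale (0.03 and 0.0198), as did Psmg3 on the TPM scale (0.00815).

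Psmg4 was the member that rose. It had 13.2, 10.7 and 11.3 CPM in Stiff+mito against 9.22, 9.58 and 10.2 CPM in Stiff, without overlap, a log2 fold change of 0.28 ± 0.10 (adjusted p = 0.016). Its call was lost without Stiff replicate 1 (0.0757) or Stiff+mito replicate 1 (0.188), with DESeq2 (0.0999), with a correction for gene length (0.128) and on the TPM scale (0.113).

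On the soft matrix the counts of the complex were higher under mito, and this depended on the treatment of gene length. In Soft+mito against Soft, 30 members rose and 0 fell, 69.8% of the tested members, against 26.7% of all genes tested, 14.8% higher and 11.9% lower. DESeq2 called 25 higher and 0 lower. With library totals in place of TMM, 38.3% of the calls over all genes were higher, against 55.5% with TMM, and 42.4% and 12.5% with the length correction and on the TPM scale. The median was 0.11 for the members and 0.01 for all genes. Gene length was taken from the deposited values as a gene's estimated count per TPM, which reflects its transcripts and not its span on the chromosome. In this comparison the median of all genes declined with that length, with values of 0.09, 0.03, 0.00, -0.02 and -0.05 from the shortest to the longest of 5 equal classes of genes. Of the 43 members, 33 lay in the shortest class, where 24 of the 33 rose (median 0.13) against 29.3% of all genes there. With the trend in gene length removed, 8 members were higher and 1 lower, and limma on log2(TPM + 1) called 3 higher and 2 lower. Both of these fits were added after the data were seen. The rise of the members is therefore not shown apart from the trend with gene length.

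Within those limits, all 7 alpha and all 7 beta subunits tested were called higher, with medians of 0.14 and 0.17. Psmb3 had 192, 189 and 204 CPM in Soft+mito against 165, 172 and 166 CPM in Soft, without overlap (0.22 ± 0.03, adjusted p = 4.29e-11). Psmb5 had 127, 135 and 133 CPM in Soft+mito against 112, 120.5 and 119 CPM in Soft (0.17 ± 0.03), and Psmb7 and Psmb6 had 0.18 ± 0.03 and 0.14 ± 0.04. The calls of Psmb5, Psmb6, Psmb7, Psmb1 and Psmd14 were lost with the length correction, at adjusted p-values of 0.39, 0.605, 0.191, 0.0965 and 0.443. Those of Psmb6, Psmb7, Psmb1 and Psmd14 were also lost on the TPM scale (0.354, 0.0926, 0.0611 and 0.767). Psmd13, a lid subunit, had 0.18 ± 0.03 and Psmb1 0.17 ± 0.03, and Psmd14 had 0.11 ± 0.03.

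The alternative caps were not called in Soft+mito. Psme1 (-0.02), Psme2 (0.05), Psme3 (0.04), Psme4 (0.02) and Psmf1 (0.02) did not pass, nor did Psmg1 (0.06), Psmg2 (0.02), Psmg3 (0.04) and Psmd10 (0.10). Psmg4 had 7.97, 9.40 and 9.61 CPM in Soft+mito against 7.42, 7.62 and 7.24 CPM in Soft (0.28 ± 0.11, adjusted p = 0.0399), a call lost with DESeq2 (0.152), with the length correction (0.555) and without Soft replicate 1 (0.0836), Soft replicate 2 (0.0594), Soft replicate 3 (0.102), Soft+mito replicate 2 (0.127) or Soft+mito replicate 3 (0.174). The Psmg4 call was also lost with library totals (0.0701), without the filter on low counts (0.0576), with only the groups compared (0.055) and on the TPM scale (0.0627). Psmd9 (0.20 ± 0.06, adjusted p = 0.0126) and Psmd5 (0.09 ± 0.03, adjusted p = 0.0318) passed as well. The Psmd9 call was lost with DESeq2 (0.086) and without Soft replicate 1 (0.117), Soft+mito replicate 2 (0.0821) or Soft+mito replicate 3 (0.0544), and the Psmd5 call with DESeq2 (0.124), library totals (0.181) and without Soft replicate 2 (0.0536), Soft replicate 3 (0.123), Soft+mito replicate 1 (0.0512) or Soft+mito replicate 3 (0.106). On the TPM scale the Psmd9 call was lost too (0.293). That of Psmd5 was also lost with the length correction (0.445) and with only the groups compared (0.0741). Psme1 was called lower with the length correction (-0.14, adjusted p = 0.00724) and on the TPM scale (-0.11, adjusted p = 0.0235). Psme4 was called lower on the TPM scale (-0.076, adjusted p = 0.0491) and higher with the length correction (0.06, adjusted p = 0.0462), and on the TPM scale Psmd5 turned sign without passing (-0.014, adjusted p = 0.79).

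Marker sums were also compared under mito. The summed level of the fibroblast markers ran from 2086 to 2188 TPM in Stiff+mito against 1516 to 1549 TPM in Stiff, and from 2531 to 2600.2 TPM in Soft+mito against 2214 to 2290.3 TPM in Soft. Vim makes up most of this sum, and of the 7 fibroblast markers tested 5 rose and 0 fell in Stiff+mito, while 1 rose and 2 fell in Soft+mito (median -0.09). That of the macrophage markers ran from 41.8 to 45.3 TPM in Stiff+mito against 33.3 to 38.1 TPM in Stiff, and from 50.02 to 54.4 TPM in Soft+mito against 41.0 to 42.5 TPM in Soft. The epithelial markers ran from 733 to 759 TPM in Stiff+mito against 696 to 714 TPM in Stiff, and from 1031 to 1043 TPM in Soft+mito against 999 to 1028 TPM in Soft. Their part in these results was not tested either.

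**Figure D4:**
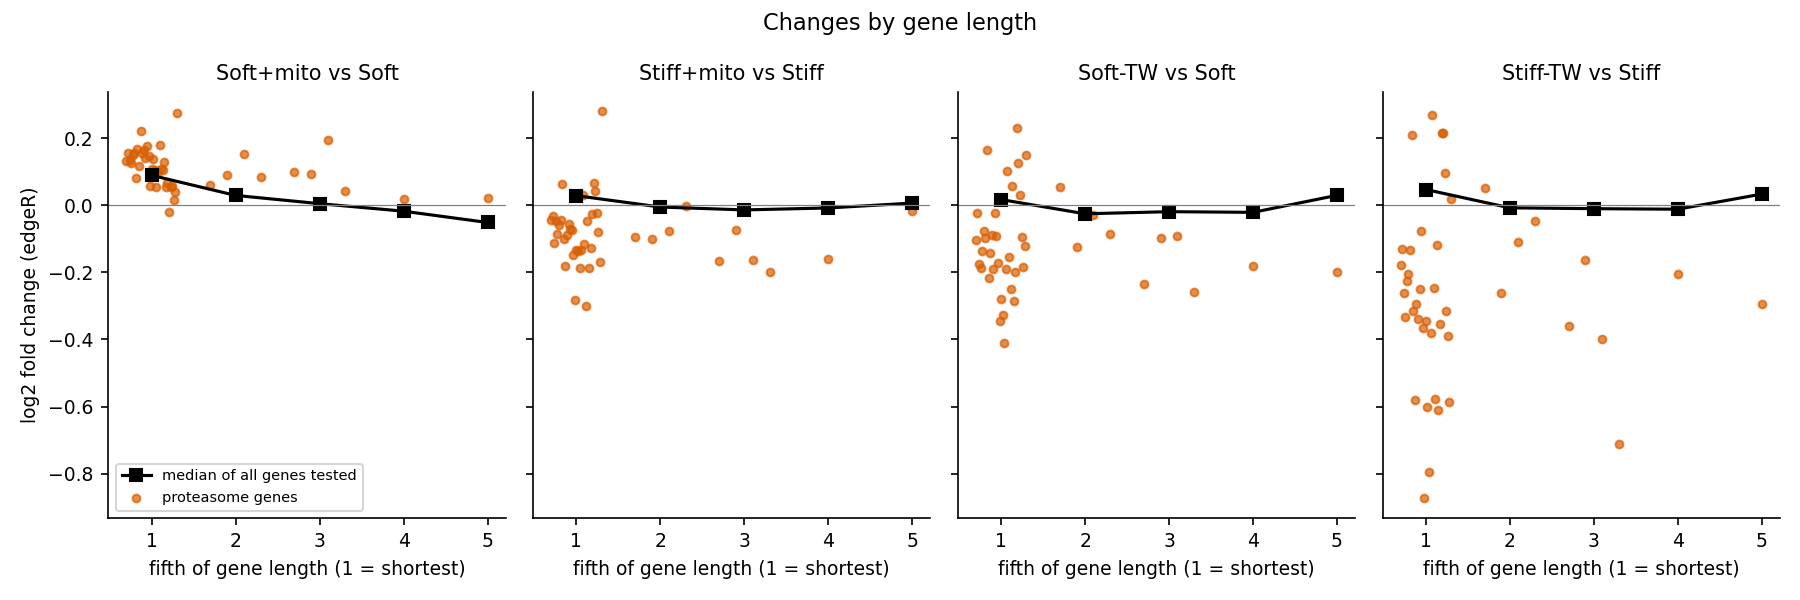
Log2 fold change of the proteasome genes (points) and the median of all genes tested (squares) in 5 equal classes of gene length, taken as estimated count per TPM. The 4 comparisons are those of mito or TW with the same matrix alone. In Soft+mito against Soft the median of all genes declines with length, from 0.09 to -0.05, and 33 of the 43 members lie in the shortest class.

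The difference between the matrices in the response to mito was tested as an interaction. A total of 32 members had a lower and 0 a higher interaction, 74.4% of the tested members, against 23.6% of all genes tested, 10.4% higher and 13.1% lower. With library totals 58.1% of the calls over all genes were higher, against 44.3% with TMM, and with the length correction and on the TPM scale 58.7% and 79.5%. DESeq2 also called 0 higher. The median was -0.21 for the members and -0.01 for all genes. With the length correction 23 members were lower and 1 higher, and on the TPM scale 21 were lower and 1 higher. Psmd14 had -0.41 ± 0.04 (adjusted p = 4.64e-14), Psmb3 -0.40 ± 0.04, Psmd9 -0.36 ± 0.09 and Psmc2 -0.34 ± 0.04. Psmb5, Psmb6 and Psmb7 had -0.22 ± 0.05, -0.21 ± 0.05 and -0.25 ± 0.05. Of the members called on both matrices, 17 were higher on soft and lower on stiff and 1, Psmg4, was higher on both. Over all genes tested, 258 were higher on soft and lower on stiff, 146 the reverse, 529 higher on both and 623 lower on both. Most of the calls on soft that this count needs were lost with the length correction, as given above (30 against 8 higher). For Psmg4 the interaction was 0.00 (95% interval -0.28 to 0.29), which spans changes in either direction. Psmd6 (-0.32), Psmd13 (-0.30), Psme3 (-0.24) and Psmf1 (-0.18) passed. Psmd5 (-0.09), Psmd10 (-0.07), Psmg1 (-0.08), Psmg2 (-0.10), Psmg3 (-0.21), Psme1 (0.09), Psme2 (-0.01) and Psme4 (-0.04) did not pass. The Psmb6 call was lost with the length correction (0.108) and on the TPM scale (0.0787), and that of Psmd9 on the TPM scale (0.0622). The Psmf1 call was lost with DESeq2 (0.106), library totals (0.0684), the length correction (0.0789) and on the TPM scale (0.425). It was also lost without Soft+mito replicate 2 (0.0676), Stiff replicate 2 (0.0636), Stiff+mito replicate 1 (0.0589) or Stiff+mito replicate 2 (0.057). Psme1 was called higher with the length correction (0.19, adjusted p = 0.00686) and on the TPM scale (0.15, adjusted p = 0.0363).

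**Figure D5:**
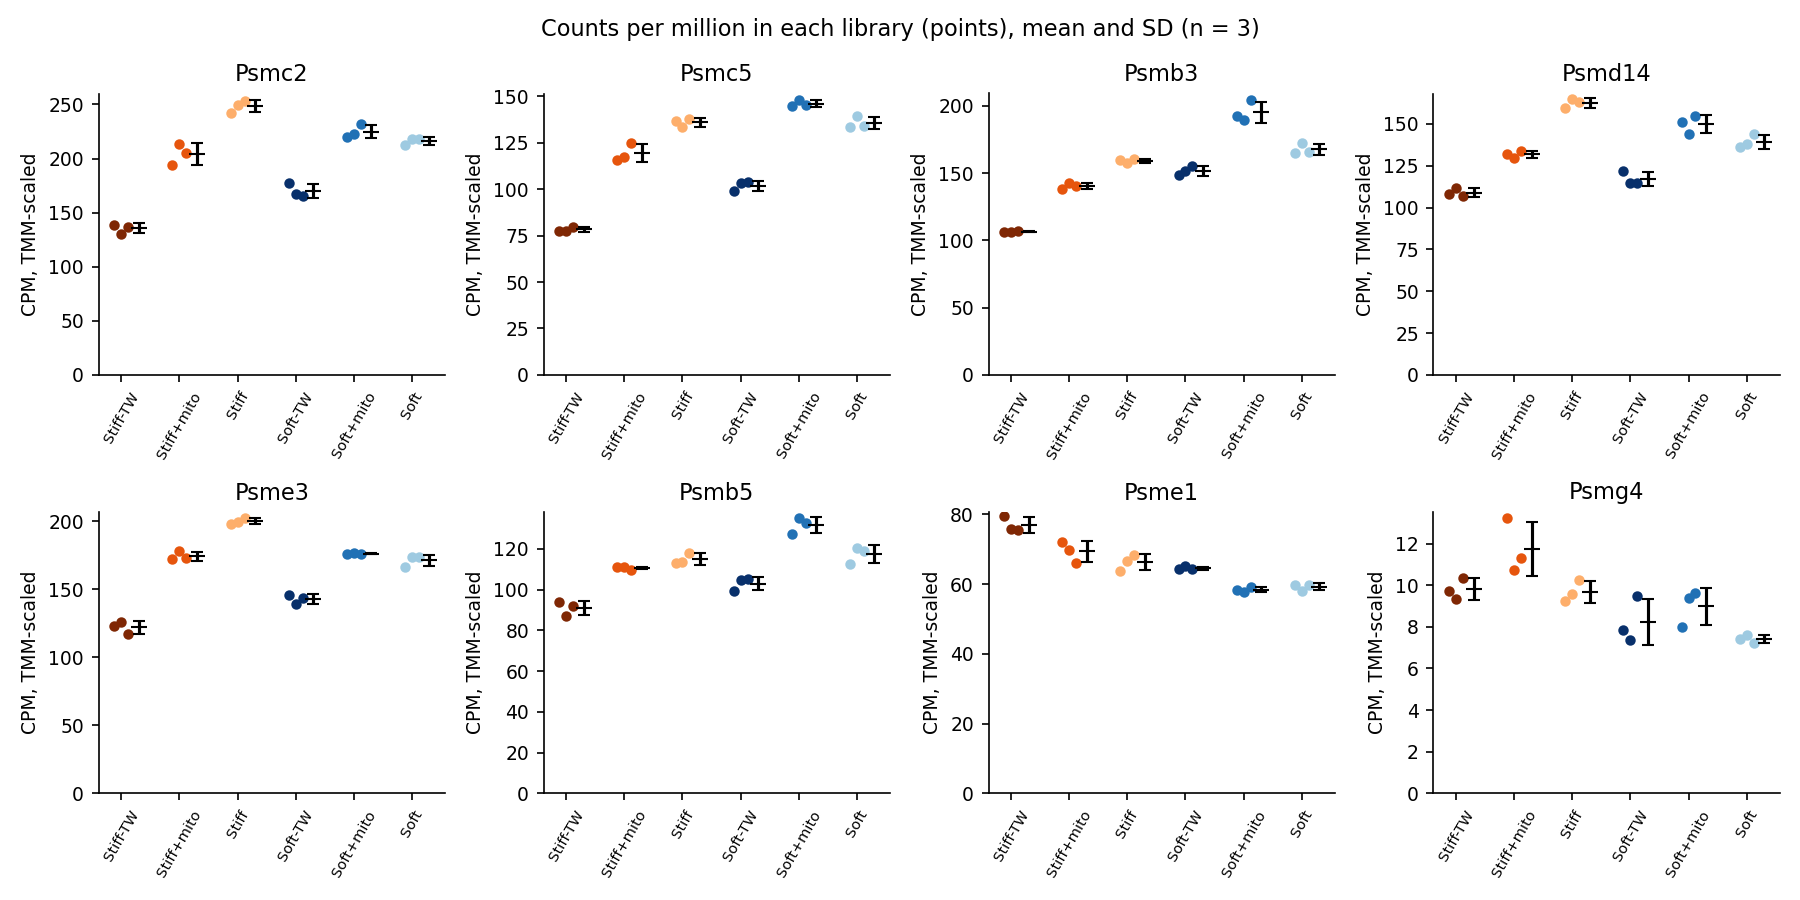
TMM-scaled CPM in each library for 8 proteasome genes, with axes from 0. Points are libraries and black marks the mean with its SD (n = 3). Psmc2, Psmc5, Psmb3, Psmd14 and Psme3 are lowest in Stiff-TW, while Psme1 is highest there.

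Without mito or TW, members differed between the matrices in either direction. In Stiff against Soft, 10 members rose and 18 fell, 65.1% of the tested members, against 53.8% of all genes tested, 29.1% higher and 24.7% lower. With library totals 44.1% of the calls over all genes were higher, against 54.1% with TMM, and on the TPM scale 35.3%. The median was -0.03 for the members and 0.01 for all genes. By role, 5 of 7 alpha subunits, 3 of 7 beta subunits, 2 of 3 non-ATPase base subunits and 5 of 8 lid subunits fell, and roles were not tested against each other. Psmd13 had 96.6, 97.4 and 94.99 CPM in Stiff against 112, 118 and 115 CPM in Soft, without overlap (-0.25 ± 0.03, adjusted p = 4.15e-11). Psmd2, a large scaffold of the base, changed by -0.24, Psmb7 by -0.19, Psmd5 by -0.19, Psme4 by -0.18, Psmd6 by -0.17 and Psmf1 by -0.17 on the log2 scale.

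Among the 10 that rose were assembly chaperones and alternative caps. Psmg4 had 9.22, 9.58 and 10.2 CPM in Stiff against 7.42, 7.62 and 7.24 CPM in Soft (0.38 ± 0.10, adjusted p = 0.00117), and Psmg3 had 13.2, 14.2 and 14.6 CPM in Stiff against 12.3, 11.7 and 11.2 CPM in Soft (0.26 ± 0.08). The Psmg3 call was lost with DESeq2 (adjusted p = 0.0591). Psmg2 rose by 0.22 and Psmg1 did not pass (0.03). Psme3 had 198, 199.7 and 202 CPM in Stiff against 166, 173 and 174 CPM in Soft (0.22 ± 0.03), Psmd14 rose by 0.22, Psmc2 by 0.20, Psme1 by 0.16 and Psme2 by 0.13. Psmb5 (-0.03), Psmb6 (0.08), Psmd9 (0.12) and Psmd10 (-0.07) did not pass, and Psmb6 passed with the length correction (adjusted p = 0.0414) and without Soft replicate 3 (0.00672) or Stiff replicate 3 (0.0127), and Psmd10 was called lower on the TPM scale (0.0358). Psmc2, Psmd14, Psme3, Psmg2 and Psmg3 had their highest mean CPM of the 6 groups in Stiff. How many of all genes did so was not counted. The changes from Stiff under TW and mito share these Stiff libraries, and those from Soft share the Soft libraries. Marker sums differed between the matrices too. The epithelial markers ran from 696 to 714 TPM in Stiff against 999 to 1028 TPM in Soft, the fibroblast markers from 1516 to 1549 TPM in Stiff against 2214 to 2290.3 TPM in Soft, and the macrophage markers from 33.3 to 38.1 TPM in Stiff against 41.0 to 42.5 TPM in Soft. Of the 7 fibroblast markers tested, 5 rose and 2 fell in Stiff, with Vim carrying the sum. Their part in the difference between the matrices was not tested.

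Within mito and within TW the stiff matrix carried lower levels of most members. In Stiff+mito against Soft+mito 35 members fell and 4 rose, 90.7% of the tested members against 63.5% of all genes tested, 32.7% higher and 30.8% lower (median -0.22). Here the median of all genes rose with gene length, from -0.05 in the shortest class to 0.09 in the longest. Of the 33 members in the shortest class 26 fell and 4 rose, where 36.5% of all genes in that class fell. In Stiff-TW against Soft-TW 36 of the 43 members fell and 3 rose, 90.7% against 54.3% of all genes tested, 27.6% higher and 26.7% lower (median -0.18). The lid fell in 8 of 8 members and the ATPase ring in 6 of 6 in both. In Stiff+mito against Soft+mito, Psmd13 had 91.1, 89.7 and 85.6 CPM in Stiff+mito against 126, 131 and 133 CPM in Soft+mito (-0.55 ± 0.03), and Psmd6, Psmb3, Psmb7, Psmd2 and Psma3 changed by -0.49, -0.48, -0.44, -0.40 and -0.39. In Stiff-TW against Soft-TW, Psmb3 and Psmd6 changed by -0.51 and -0.50, and Psmc5, Psmd13, Psmc2 and Psmd12 by -0.38, -0.35, -0.33 and -0.30.

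The proteolytic subunits were lower on the stiff matrix within mito and within TW. In Stiff+mito against Soft+mito, Psmb5 and Psmb6 changed by -0.25 and -0.13, Psmd14 by -0.19, Psme4 by -0.22, Psmf1 by -0.34, Psmd5 by -0.27 and Psmd9 by -0.24. Psmd10 (-0.14) and Psmg2 (0.13) passed. The Psmd10 call was lost with DESeq2 (0.0824), the length correction (0.458) and without Soft+mito replicate 2 (0.0587), Soft+mito replicate 3 (0.227), Stiff+mito replicate 2 (0.125) or Stiff+mito replicate 3 (0.0629). The Psmg2 call was lost with DESeq2 (0.186), library totals (0.0543) and without Soft+mito replicate 1 (0.118), Soft+mito replicate 2 (0.154), Stiff+mito replicate 2 (0.057) or Stiff+mito replicate 3 (0.169). The Psmb6 call was lost with the length correction (0.52). Psme3 (-0.02), Psmg1 (-0.05) and Psmg3 (0.05) did not pass. In Stiff-TW against Soft-TW, Psmb5, Psmb6 and Psmb7 changed by -0.18, -0.15 and -0.17, Psmd14 by -0.10, Psme3 by -0.23, Psme4 by -0.27, Psmf1 by -0.19, Psmg1 by -0.19, Psmd5 by -0.15 and Psmd9 by -0.19. Psmd10 (0.09), Psmg2 (0.02) and Psmg3 (-0.21) did not pass, and Psmg3 passed with library totals (adjusted p = 0.0249). The Psmd9 call was lost with DESeq2 (0.0564) and without Soft-TW replicate 1 (0.0618), Soft-TW replicate 3 (0.0709) or Stiff-TW replicate 3 (0.181), the Psmg1 call with DESeq2 (0.0847) and without Soft-TW replicate 1 (0.177) or Stiff-TW replicate 2 (0.0613), and the Psmd14 call without Soft-TW replicate 1 (0.0777).

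The PA28 pair went the other way in all 3 settings of the matrices. Psme1 rose by 0.16 in Stiff against Soft, 0.25 in Stiff+mito against Soft+mito and 0.25 in Stiff-TW against Soft-TW. Psme2 rose by 0.13, 0.11 and 0.19 in the same comparisons. Psmg4 also rose in each (0.38, 0.39 and 0.25), the last lost with DESeq2 (adjusted p = 0.149), library totals (0.0638) and without Soft-TW replicate 1 (0.111), Soft-TW replicate 2 (0.214), Stiff-TW replicate 1 (0.0639) or Stiff-TW replicate 3 (0.142). The 3 immunoproteasome genes, which replace the proteolytic subunits of the core in cells exposed to interferon, had a summed level of 148 ± 5.03 TPM in Stiff-TW, 112 ± 1.71 TPM in Stiff+mito and 99.6 ± 4.29 TPM in Stiff (SD, n = 3 each). In Soft-TW, Soft+mito and Soft the sums were 90.7 ± 3.46, 59.9 ± 2.57 and 66.8 ± 1.1 TPM. Psmb8 changed by 0.81 ± 0.05 in Stiff-TW against Stiff, where its constitutive counterpart Psmb5 changed by -0.34. Psmb8 also changed by 0.66 ± 0.06 in Stiff against Soft. Of the 3 immunoproteasome genes, 2 rose in Stiff-TW against Stiff and 1 in Soft-TW against Soft, where 35.5% and 28.9% of all genes tested rose. Psmb8 made up most of the sum in Stiff-TW, with 100 TPM. Psmb10 had 13.7 TPM in Stiff-TW against 13.8 TPM in Stiff.

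In 38 of the 45 members 1 transcript held over 90% of the gene's estimated counts, pooled over libraries. Many of these, such as Psmb3 and Psmc5, had only 1 transcript listed, so their share of 100% was fixed in advance. Psmb11 was counted among them with at most 2 counts in a library. For Psmd4, the ubiquitin receptor of the base, the main RefSeq transcript held 61.6% ± 2.0 of the gene in Stiff-TW and 63.0% ± 1.2 in Stiff (SD, n = 3 each). For Psmd11, a lid subunit, it held 75.6% ± 2.2 in Stiff-TW and 73.6% ± 0.35 in Stiff. For Psmg4 it held 74.1% ± 5.0 in Stiff-TW and 73.7% ± 2.0 in Stiff, and 77.2% ± 5.5 in Stiff+mito. These shares rest on the authors' division of reads between transcripts and were not tested.

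Regulators of proteasome genes were called about as often as all genes in Stiff against Soft and in Stiff-TW against Stiff. Of 11 tested genes, 1 rose and 5 fell in Stiff against Soft (54.5%, against 53.8% of all genes tested). In Stiff-TW against Stiff 3 rose and 5 fell (72.7% against 69.6%, median -0.13). In Soft+mito against Soft 3 rose and 2 fell (45.5% against 26.7%), and in the mito interaction 18.2% were called against 23.6%. Nfe2l1 changed by 0.36 ± 0.02 in Stiff against Soft (adjusted p = 1.38e-29) and by 0.14 ± 0.02 in Soft-TW against Soft. In Stiff-TW against Stiff it did not pass (-0.03, adjusted p = 0.234). Maff, a small Maf protein that pairs with such factors, changed by 1.57 ± 0.04 in Stiff-TW against Stiff and 1.15 ± 0.04 in Soft-TW against Soft. Mafk and Mafg, of the same family, changed by -0.13 and -0.22 in Stiff-TW against Stiff, both called lower.

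Of 17 tested partners of the proteasome that the name rule does not take, 10 fell and 1 rose in Stiff-TW against Stiff (64.7%, against 69.6% of all genes tested, median -0.14). In Soft-TW against Soft 7 fell and 2 rose (52.9% against 56.9%, median -0.04). The called shares under TW were thus no higher than those of all genes, of which 34.1% fell in Stiff-TW and 28% in Soft-TW. In Soft+mito against Soft 9 partners rose and 0 fell (52.9% against 26.7%). In Stiff+mito against Stiff 2 rose and 6 fell (47.1% against 33.5%). In the mito interaction 8 were lower and 0 higher (47.1% against 23.6%). In Stiff against Soft the share lay below that of all genes (47.1% against 53.8%). Zfand2a, an adaptor of the 19S cap induced by proteotoxic stress, changed by -0.85 in Stiff-TW against Stiff and -0.35 in Soft-TW against Soft. It changed by -0.72 in Stiff against Soft. Uchl5, a deubiquitinase of the base, changed by -0.42 and -0.26 under TW. Ubqln4, a shuttle for ubiquitinated proteins, changed by -0.39 and -0.19, and Ube3c, a ubiquitin ligase at the proteasome, by -0.29 and -0.16.

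Ubb, a polyubiquitin gene, rose by 0.07 in Stiff+mito against Stiff and 0.25 in Soft+mito against Soft, but changed by -0.08 in Stiff-TW against Stiff. Rps27a, a fusion of ubiquitin with a ribosomal protein, rose by 0.34 in Stiff against Soft. Uba1, the main ubiquitin-activating enzyme, changed by -0.12 in Stiff-TW against Stiff.

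Upstream sequences of 5 members are printed, chosen after their values were seen, to show what lies before their starts. They are 250 bases ending at the base before the RefSeq start, 5′ to 3′ on the strand of the gene, from RefSeq GRCm38.p6. Windows were found for 37 of the 45 members, of which Psmc2 has 2, and its first is printed. The motifs searched on both strands were TGACNNNGC, the core of the antioxidant response element that Nfe2l1 binds, and CCAAT, the box bound by NF-Y. Matches are in capitals.
Psmc2, plus strand, chr5:21785025-21785274: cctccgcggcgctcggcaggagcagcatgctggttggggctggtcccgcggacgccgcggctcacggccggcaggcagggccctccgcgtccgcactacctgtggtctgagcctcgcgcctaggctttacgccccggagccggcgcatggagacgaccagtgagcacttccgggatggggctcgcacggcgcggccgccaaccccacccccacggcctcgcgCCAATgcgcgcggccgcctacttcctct
Psmc5, plus strand, chr11:106255935-106256184: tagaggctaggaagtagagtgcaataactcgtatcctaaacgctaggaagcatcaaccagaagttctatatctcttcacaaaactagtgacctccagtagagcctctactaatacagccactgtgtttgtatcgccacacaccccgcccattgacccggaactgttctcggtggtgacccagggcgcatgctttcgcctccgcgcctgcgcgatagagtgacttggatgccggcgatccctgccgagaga
Psmb3, plus strand, chr11:97703184-97703433: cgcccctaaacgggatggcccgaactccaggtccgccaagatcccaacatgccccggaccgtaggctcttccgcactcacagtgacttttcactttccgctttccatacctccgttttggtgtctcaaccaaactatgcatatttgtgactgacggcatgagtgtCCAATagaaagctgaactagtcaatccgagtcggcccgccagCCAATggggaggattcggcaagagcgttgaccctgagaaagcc
Psmb5, minus strand, chr14:54617996-54618245: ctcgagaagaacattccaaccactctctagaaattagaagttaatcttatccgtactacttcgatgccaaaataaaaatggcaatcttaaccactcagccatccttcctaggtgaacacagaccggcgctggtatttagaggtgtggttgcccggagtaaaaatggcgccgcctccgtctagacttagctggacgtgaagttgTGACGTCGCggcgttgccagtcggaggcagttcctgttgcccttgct
Psme1, plus strand, chr14:55578244-55578493: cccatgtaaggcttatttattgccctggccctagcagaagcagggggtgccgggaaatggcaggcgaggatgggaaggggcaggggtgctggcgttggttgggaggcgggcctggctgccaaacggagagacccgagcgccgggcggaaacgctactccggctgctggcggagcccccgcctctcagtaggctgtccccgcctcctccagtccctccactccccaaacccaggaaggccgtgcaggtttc

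Psmc2, Psmc5 and Psmb3 were shown as large falls in Stiff-TW, Psmb5 as a proteolytic subunit that fell less and holds a TGACNNNGC match, and Psme1 as a rise. The printed windows of Psmc2 and Psmb3 held CCAAT, at 1 and 2 places, while the other window of Psmc2 held neither motif, the window of Psmb5 held TGACNNNGC, and those of Psmc5 and Psme1 held neither. Over all members, TGACNNNGC was found in 5 of 40 windows (12.5%), against 10.2% of 32851 windows of all genes. CCAAT was found in 13 of 40 windows (32.5%), against 33.8% of all windows. The genes with TGACNNNGC were Psmb5, Psmb6, Psmc6, Psmd12 and Psmd9, and they changed by -0.34, -0.25, -0.38, -0.26 and -0.40 in Stiff-TW against Stiff. A match describes the letters of a window and is not a binding site.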

How the data were processed

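The authors deposited, per the file headers, a gene table with estimated counts (expected counts) and TPM for 18 libraries, and a transcript table of estimated counts. Values off a whole number by more than 0.001 made up 10.9% of the gene counts. Libraries were poly(A)-selected and strand-specific, per the labels' protocols, and the build is mm10, per the submitters' processing notes. For the aligner and quantifier, versions and names were not given in the sources used here. A total of 44 columns of averages per table were not used. After rounding to integers, the estimated counts went into edgeR 4.0.16 under R 4.3.3 (filterByExpr, TMM, robust quasi-likelihood, 1 mean per group, 9 comparisons). Levels are the authors' TPM. Alternatives used DESeq2 1.42.0 and limma 3.58.1, left out libraries, or removed a trend in gene length, taken as estimated count per TPM. Tested on simulated data for Soft+mito against Soft (12129 genes), 74% of 1.1-fold and 100% of 1.25-fold changes were recovered. The changed genes were drawn only from genes with high counts, and all genes were given the same spread. These shares therefore do not cover members with few counts, such as Psmg4 with 120 to 216 per library. Fully described were the 6 largest rises and falls per comparison (4 for interactions), the proteolytic subunits, Psmd14, caps and chaperones, and up to 4 genes per related list by adjusted p. Members, lists and rules were chosen with earlier results of these data known. A gene of the related lists is not reported here.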

Additional observations from a re-analysis of the deposited data

Results flagged for a closer look

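The response to mito differed between the matrices, as tested by the interaction in edgeR. The count of members with a lower interaction was 32 of 43, where 13.1% of all genes tested had a lower interaction. On the log2 scale Psmd14 had -0.41, Psmb3 -0.40, Psmd9 -0.36 and Psmc2 -0.34, and Psmb5, Psmb6 and Psmb7 had -0.22, -0.21 and -0.25. Psme3 had -0.24 and Psmf1 -0.18. As adjusted p, the Psmb6 call was lost with the length correction (0.108) and on the TPM scale (0.0787). That of Psmd9 was lost on the TPM scale (0.0622). The Psmf1 call was lost with DESeq2 (0.106), library totals (0.0684), the length correction (0.0789) and on the TPM scale (0.425). It was also lost without Soft+mito replicate 2 (0.0676), Stiff replicate 2 (0.0636), Stiff+mito replicate 1 (0.0589) or Stiff+mito replicate 2 (0.057), as adjusted p.

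The response to TW differed likewise, with 24 of 43 members lower, where 19.7% of all genes tested were lower. Psmc2 had -0.53, Psmg3 -0.47, Psme3 -0.45 and Psmb3 -0.44. Psmd14 had -0.33, Psmd9 -0.31, Psmb6 -0.23, Psmg2 -0.21, Psmb5 -0.15 and Psme4 -0.09. As adjusted p, the Psmg2 call was lost with DESeq2 (0.142), with the length correction (0.0803) and without the filter on low counts (0.0686). The Psme4 call was lost with DESeq2 (0.0699), on the TPM scale (0.844) and without the filter (0.0606). Both calls were also lost without several single libraries, as given with the result. That of Psmd9 was lost on the TPM scale (0.0633) and without Stiff-TW replicate 3 (0.071), as adjusted p. That of Psmb5 was lost without Stiff-TW replicate 2 (0.0787).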

How the results depend on the processing

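With a length-trend offset, chosen after seeing the data, 8 members were higher and 1 lower in Soft+mito against Soft, 0 higher in Stiff+mito against Stiff, 5 higher in Soft-TW against Soft, 5 higher in Stiff-TW against Soft-TW, and 1 higher in each interaction. With limma on log2(TPM + 1), also added later, 3 were higher and 2 lower in Soft+mito, 0 higher in Stiff+mito, 1 higher in Soft-TW, 1 higher in each interaction, and 21 lower in the mito interaction. There, Psme4 (-0.076) and Psmd5 (-0.014) in Soft+mito, Psme2 (-0.069) in Soft-TW and Psmg4 (-0.18) in Stiff-TW against Stiff changed sign. DESeq2 gave 0 and the fit of only the groups compared gave 2 higher in Stiff+mito. The cause was not tested.

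Without each replicate in turn, members higher ranged from 25 to 30 in Soft+mito, 3 to 5 in Soft-TW, 4 to 5 in Stiff-TW against Stiff, 0 to 1 in Stiff+mito and 9 to 11 in Stiff against Soft. Members lower ranged from 19 to 23 in Stiff+mito, 26 to 28 in Soft-TW, 34 to 35 in Stiff-TW, 31 to 33 in the mito interaction 19 to 25 in the TW interaction and 16 to 18 in Stiff against Soft. Of 183 named results, 25 changed their call without some library and 0 reversed.

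Replicate numbers did not pair the libraries (correlations of -0.108 to 0.101). With the replicate block, 30 members were higher in Soft+mito and 33 lower in the mito interaction, and no named call changed.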

Other observations

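TRiC, the chaperonin that folds actin and tubulin, was mostly lower in Stiff-TW and Stiff+mito. Of its 8 subunit genes 7 fell and 1 rose in Stiff-TW against Stiff (median -0.21), where 34.1% of all genes tested fell. In Stiff+mito against Stiff 6 fell and 0 rose, where 17.8% of all genes fell. In the mito interaction 8 of 8 were lower (median -0.18), against 13.1% of all genes. Cct3 changed by -0.71 ± 0.02 in Stiff-TW against Stiff, Cct6a by -0.50 ± 0.02 and Cct8 by -0.45 ± 0.02. Cct4 rose by 0.33 in Stiff against Soft.

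The p97 system, which extracts ubiquitinated proteins for the proteasome, was called about as often as all genes in Stiff-TW against Stiff. Of 12 genes 7 fell and 2 rose there, 75.0% against 69.6% of all genes tested, 35.5% higher and 34.1% lower. Vcp, the p97 ATPase, changed by -0.27 and its cofactor Nploc4 by -0.27, while the adaptors Ubxn7 and Ubxn1 rose by 0.42 and 0.33. Under mito the called shares lay above those of all genes. In Stiff+mito against Stiff 3 rose and 5 fell (66.7% against 33.5%). In Soft+mito against Soft 5 rose and 0 fell (41.7% against 26.7%). In the mito interaction 4 were lower and 1 higher (41.7% against 23.6%).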
